A study of Saccharomyces cerevisiae with 24 samples.

Results

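The nucleotides described are the uridines of mature ribosomal RNA in Saccharomyces cerevisiae, read by DMS-MaPseq. Dimethyl sulfate (DMS) was allowed to react with purified ribosomes, and reverse transcription with TGIRT-III left a mismatch where a methylated base was read. A member was any U of 18S, 5.8S or 25S, the 3 mature RNAs cut from the RDN37 transcript, with an effective depth of at least 1000 reads in all 12 libraries of mature ribosomes. This took 1420 of the 1423 U of these RNAs, out of 5350 mature nucleotides at that depth and 6858 nucleotides of RDN37. They comprised 509 U of 18S, 44 of 5.8S and 867 of 25S. The 3 U left out were 18S U1, 25S U2 and 25S U3 at the 5′ ends, where the lowest depth was 263, 457 and 790 reads. Each site carries its position within 18S, 5.8S or 25S, with the first base as 1.

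In one experiment, mature ribosomes came from BY4741 lacking snr31 and snr54 (named the deletion from here) and from BY4741 itself. snR31 guides pseudouridylation of 18S U999 and snR54 guides ribose methylation of 18S A974. The other experiment used pre-40S particles, precursors of the small subunit isolated with Utp9-TAP, from cells that expressed Rrp5_mL (mL) or wild-type Rrp5 (WT). Both pre-40S strains also carried H375A, and the sources used here do not say on which protein. Each of the 4 sources had 3 biological replicates with 1% DMS for 5 min at 30 °C and 3 without DMS, which gave 24 libraries in 8 groups. The p-values therefore rest on the spread between 3 biological replicates, which edgeR estimates for a site in part from other sites. The treatment label speaks of mature 40S ribosomes and the design of mature ribosomes, and 25S was read deeply in all 12 mature libraries.

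DMS methylates the Watson-Crick face of unpaired A and C, and it reacts with the same face of U only slowly because the N3 of U carries a proton. A U that already carries a group at N3 is misread by reverse transcriptase without any DMS. Yeast rRNA has such bases, m1acp3-pseudouridine in the small subunit and m3U in the large one, beside many pseudouridines and ribose methylations that leave the pairing face free. U is therefore often used as a background base in DMS probing.

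The U with the largest rises called in both strains are shown first with 12 bases on each side and the U itself in capitals, as the deposited profiles give the sequence.
25S U3275: ggcgaauugcaaUgucauuuugcgu
18S U558: uuggagggcaagUcuggugccagca
18S U216: guauuuauuagaUaaaaaaucaaug
18S U280: cgcauggccuugUgcuggcgauggu
25S U762: gaccgauccugaUgucuucggaugg
25S U1348: uaccgucaggguUgauaugaugccc

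The 3 copies of an 8-nt element whose U all rose follow, with the element in capitals. They are shown because 2 of the RNAs share it.
18S C716: uugaguCCUUGUGGcucuug
25S C462: ucugcuCCUUGUGGguaggg
25S C3193: aggcguCCUUGUGGcgucgc

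Several of the 15 copies of UUCG held a U called higher in both strains. Those at 18S U319 and 25S U133, U766 and U2868 are not printed, and 4 others follow with the motif in capitals.
18S U231: aaugucUUCGgacucu
18S U493: ggcccaUUCGggucuu
25S U2570: gucccaUUCGgggcug
25S U2471: gggagcUUCGgcgcca

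Another motif, UAGC, is shown by 5 of its 20 copies because its U had rates that differed between libraries of the same group.
18S U1356: uggugcUAGCauuugc
25S U790: agagcaUAGCuguugg
25S U966: ucaggaUAGCagaagc
25S U1293: augaacUAGCccugaa
25S U2351: acuaucUAGCgaaacc

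The median effective depth at the U was 41566 to 60685 reads in the mature libraries with DMS and 44097.5 to 103861 without. In the pre-40S libraries it was 197 to 513.5 with DMS and 55 to 631.5 without, so that a single mutated read moved a rate by a visible amount there. The limits given for rates of 0 cover counting error only, since amplified reads carry no molecular identifier. At 8 U of 18S (U3, U37, U128, U132, U134, U303, U611 and U935) single libraries stood apart from the rest. The mean over these U was 0.0842%, 0.119% and 1.68% in the deletion with DMS. It was 0.0768%, 4.99% and 0.102% in BY4741 without DMS. In the other 6 mature libraries it was 0.0561% to 0.0918%. In the 6 pre-40S libraries with DMS the same U averaged 0.0649% to 0.314%. Without DMS they averaged 2.45%, 2.11% and 1.33% with mL, and 5.30%, 23.7% and 2.75% with WT, where U128 reached 88.4% in replicate 2. What set these rates was not tested.

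Over all 1420 U the mean mutation rate did not separate treated from untreated ribosomes. It was 0.215%, 0.208% and 0.231% in the deletion with DMS, against 0.223%, 0.22% and 0.222% without. In BY4741 it was 0.236%, 0.228% and 0.221% with DMS, against 0.211%, 0.269% and 0.222% without. The groups overlapped in both strains. The difference of treated minus untreated means was -0.00337 percentage points in the deletion (SE 0.007, n = 3 each, exact two-sided permutation p = 0.7) and -0.00591 points in BY4741 (SE 0.0182, n = 3 each, exact two-sided permutation p = 0.9). With 3 libraries against 3 this test cannot go below 0.1. The mean is carried by 3 U with N3 modifications and by the 8 U above. Without these 11 U, a choice made after the values were seen, the mean was 0.0589%, 0.0583% and 0.0669% in the deletion with DMS, against 0.0421%, 0.0384% and 0.0403% without. In BY4741 it was 0.0776%, 0.0723% and 0.0655% with DMS, against 0.0314%, 0.061% and 0.0413% without. Neither strain's groups then overlapped, and the ratio was 1.52 in the deletion and 1.61 in BY4741. The excess came to 1.23% of the excess at A in the deletion and 2.05% in BY4741.

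By site, a minority of U rose with DMS. The mutation counts were tested with edgeR's quasi-likelihood test, and a site was called at a Benjamini-Hochberg adjusted p under 0.05 over all mature nucleotides. In the deletion 283 of 1420 U were higher (19.9%), where 44.6% of all nucleotides were, and 44 were lower, where 4.80% of all nucleotides were. In BY4741 222 of 1419 tested U were higher (15.6%), against 41.5% of all nucleotides, and 8 were lower, against 0.729%. A rise of at least 2-fold was called at 222 U in the deletion, against 40.0% of all nucleotides, and at 196 U in BY4741, against 38.5%. For comparison, 99.1% of A, 55.7% of C and 7.39% of G were called higher in the deletion, and 97.7%, 50.9% and 5.07% in BY4741. U thus lay between C and G in its share of calls in both strains. The median log2 change of all U was 0.05 in the deletion and 0.24 in BY4741, and that of the U called higher was 1.45 and 1.58.

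These counts depend on how libraries are scaled and on one library. With each library scaled to the median of all sites, the median change of all sites moved by -0.52 on the log2 scale in the deletion and by -0.65 in BY4741. U called higher and lower were then 188 and 436 in the deletion and 126 and 319 in BY4741. With a factor from G sites they were 303 and 13 in the deletion, where the median of all sites moved by 0.12, and 194 and 6 in BY4741. Without BY4741 untreated replicate 2, the library that stood apart at 8 U, BY4741 had 344 U higher and 9 lower.

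The 3 RNAs had similar shares. In the deletion 96 U of 18S (18.9%), 12 of 5.8S (27.3%) and 175 of 25S (20.2%) were higher. In BY4741 these were 76 (14.9%), 9 (20.5%) and 137 (15.8%). Lower U in the deletion were 12 in 18S, 3 in 5.8S and 29 in 25S. In BY4741 they were 5 in 18S, 0 in 5.8S and 3 in 25S, where 5.8S had 13 U at an unadjusted p under 0.05 in either direction.

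The strains share no library, and 176 U were higher in both, which is 62.2% of the deletion's and 79.3% of BY4741's. For scale, 19.9% of all U were higher in the deletion and 15.6% in BY4741. Of all nucleotides these shares were 44.6% and 41.5%, and their overlap between strains is not given here. Without deletion treated replicate 3 and BY4741 untreated replicate 2, the pair of libraries that stood apart, 214 U were higher in both and 169 of them were among the 176. Over 1419 U the log2 changes of the strains had a Spearman correlation of 0.54, given as a description since the U share each library's depth and scale. The 3 U lower in both were 25S U2634, described below, 18S U37, one of the 8 U above, and 25S U2683. U2683 was at 0.0307% with DMS and 0.0646% without in the deletion, and at 0.024% with DMS and 0.0631% without in BY4741.

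**Figure D1:**
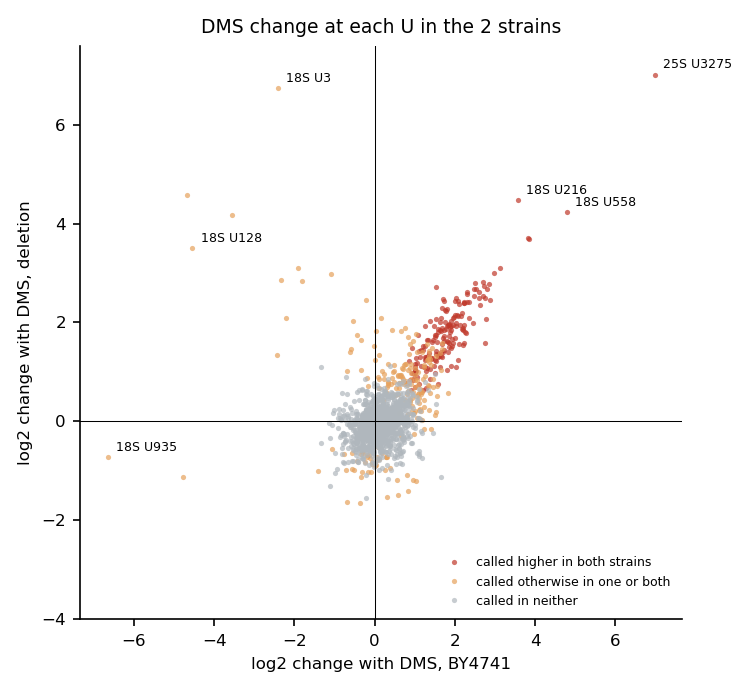
Log2 change with DMS over no DMS at 1419 U, with the deletion on the vertical axis and BY4741 on the horizontal one; each point is 1 U, coloured by its call. Red points, the 176 U called higher in both strains, run along the diagonal up to 25S U3275, and several of the 8 U of 18S with 1 or 2 high libraries lie far to the left.

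No U was called as differing between strains in its response to DMS. The strain by DMS interaction, relative to the typical site, called 0 of 1420 U by edgeR, where 0.0187% of all nucleotides were called. At an unadjusted p under 0.05 there were 79 U, and the smallest adjusted p by edgeR was 0.207, at 18S U3. DESeq2 called 0 with 43 at an unadjusted p under 0.05, and limma 0 with 72. That no U passed does not show that the strains respond alike.

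25S U3275, toward the 3′ end of 25S, had the highest treated rate of all U outside the N3-modified ones. It was mutated in 3.22%, 4.08% and 3.49% of reads in the deletion with DMS, against 0.0165%, 0.0299% and 0.037% without. BY4741 gave 4.11%, 3.48% and 3.82% with DMS, against 0.0348%, 0.0334% and 0.0207% without. All 6 treated libraries lay far above all 6 untreated ones. The log2 change was 7.01 in the deletion (SE 0.252, edgeR adjusted p = 2.33e-14) and 6.98 in BY4741 (SE 0.336, edgeR adjusted p = 8.96e-09). Of 1423 A, which DMS does methylate, 140 had a higher treated rate in the deletion and 94 in BY4741. The strain by DMS interaction was 0.18 (SE 0.457, edgeR adjusted p = 0.924).

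The bases around U3275 were reactive as well. In the deletion A3273 had 1.55%, A3274 2.16%, C3278 3.25% and A3279 2.22% with DMS, against at most 0.0649% without. In BY4741 these bases had 0.945%, 1.69%, 2.64% and 1.62% with DMS, against at most 0.0717% without. The nearest other U, U3277 on the 3′ side and U3270 on the 5′ side, were at 0.0806% and 0.0765% with DMS in the deletion, against 0.0345% and 0.0256% without, far below U3275.

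In pre-40S particles, where 25S is read at low depth, treated libraries lay above untreated ones at U3275 with mL. It had 1.76%, 1.55% and 2.16% with mL and DMS, against 0% in the 3 untreated mL libraries. With WT it had 0.694%, 0.348% and 0.633% with DMS, against 0% in the 3 untreated libraries. The untreated sums of 1122 reads with mL and 1037 with WT allow up to 0.267% and 0.289%. The treated values rest on 3, 7 and 6 mutated reads with mL and on 2, 1 and 1 with WT, so that with WT a single read exceeds the limit of the deeper untreated sum and no order between treated and untreated WT libraries is read from them.

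**Figure D2:**
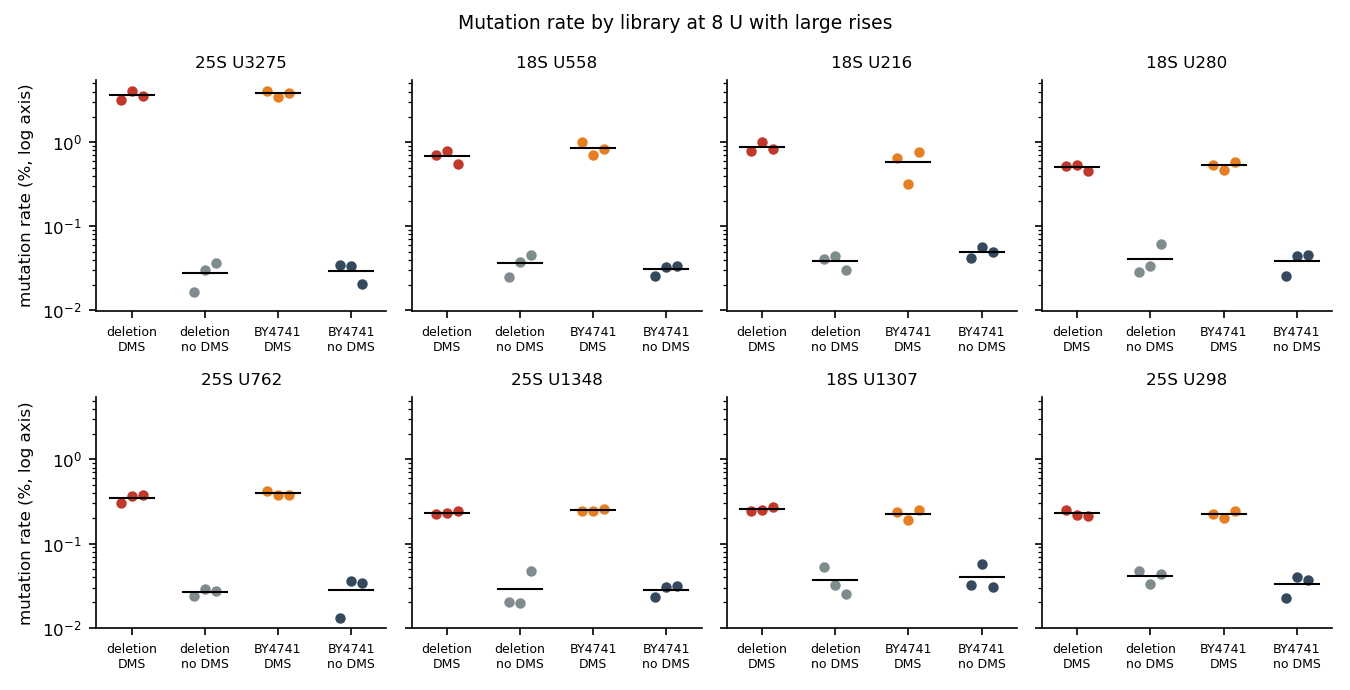
Mutation rate in percent on a log axis at 8 U, one point per library and a bar for the mean of 3, for the deletion and BY4741 with and without DMS. Treated libraries lie above untreated ones without overlap in every panel, from 0.19% to 4.11%, while the highest untreated one is at 0.0608%.

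Among U called higher in both strains, with a mean of at least 0.2% with DMS and no overlap, the next largest log2 rises were at the other U printed first. 18S U558 had 0.698%, 0.781% and 0.558% in the deletion with DMS, against 0.0253%, 0.0378% and 0.0455% without. In BY4741 it had 0.992%, 0.697% and 0.835% with DMS, against 0.0254%, 0.0327% and 0.0342% without. The log2 change was 4.23 in the deletion (SE 0.248, edgeR adjusted p = 1.56e-11) and 4.79 in BY4741 (SE 0.273, edgeR adjusted p = 1.13e-08).

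18S U216, in the 5′ domain, had 0.787%, 0.992% and 0.841% in the deletion with DMS, against 0.0405%, 0.0439% and 0.0303% without. In BY4741 it had 0.646%, 0.318% and 0.759% with DMS, against 0.0417%, 0.0571% and 0.0494% without. BY4741 treated replicate 2 was the lowest of the 6 treated libraries, and all 6 lay above every untreated one. The log2 changes were 4.47 in the deletion and 3.57 in BY4741, with edgeR adjusted p = 1.43e-12 and 1.17e-06.

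18S U280 averaged 0.506% with DMS and 0.0411% without in the deletion, and 0.531% with DMS and 0.0387% without in BY4741. 25S U762 averaged 0.349% with DMS and 0.0267% without in the deletion, and 0.396% with DMS and 0.0277% without in BY4741. 25S U1348 averaged 0.233% with DMS and 0.029% without in the deletion, and 0.248% with DMS and 0.0284% without in BY4741. In all 3 the groups did not overlap and edgeR's adjusted p was at most 2.77e-07. 18S U1307 and 25S U298, U1732 and U2070 were also among the U named with a mean of at least 0.2%, with log2 changes of 2.49 to 2.79 in the deletion and 2.51 to 2.84 in BY4741.

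At U216 and U762 the base just 5′ was an A with a much higher rate. A215 had 4.42% in the deletion with DMS, against 0.0246% without, and 3.21% in BY4741 with DMS, against 0.0616% without. A761 had 36.7% in the deletion with DMS, against 0.0603% without, and 31.5% in BY4741 with DMS, against 0.134% without. At U558 the base 5′ was G557, which was not raised, while C554 had 2.66% in the deletion with DMS and 2.18% in BY4741 with DMS. A556, between them, had 1.05% in the deletion with DMS, against 0.254% without, and 0.904% in BY4741 with DMS, against 0.211% without. A555 had 0.742% in the deletion with DMS and 0.574% in BY4741 with DMS, against 0.0942% and 0.104% without. Whether a methylated neighbour moves the call to the next base was not tested.

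**Figure D3:**
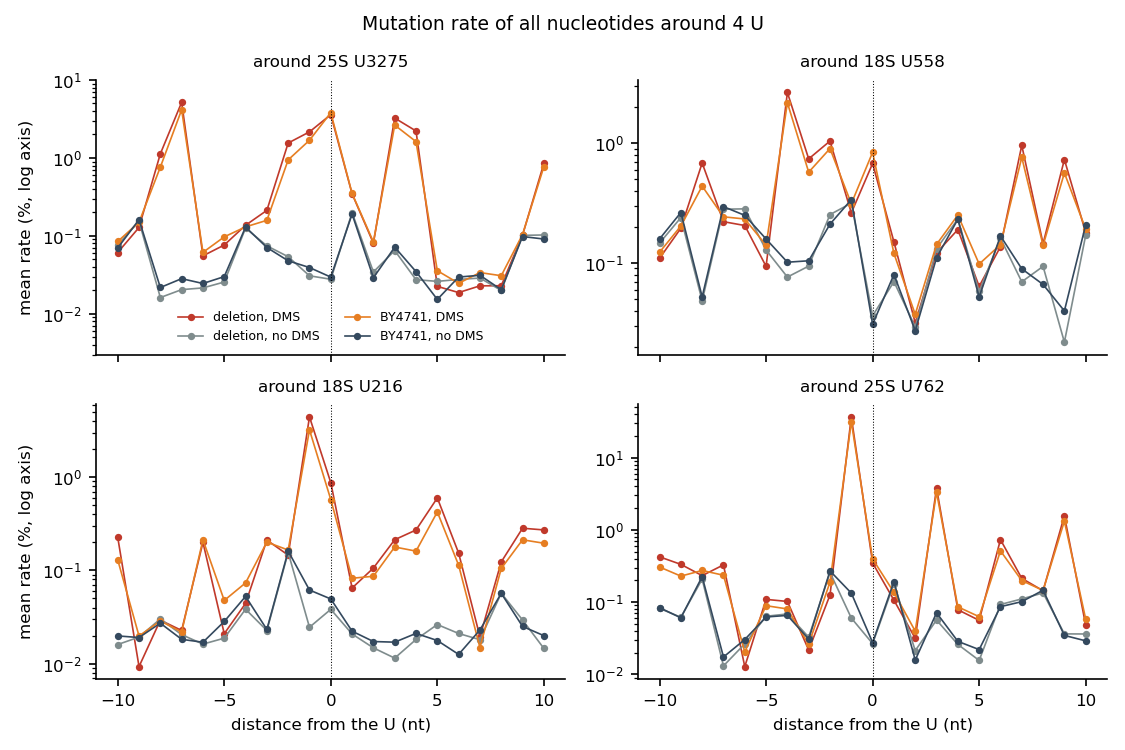
Mean mutation rate in percent on a log axis at each nucleotide within 10 nt of 4 U, with the U at distance 0 (dotted line) and a line for each group of 3 libraries, each panel on its own range. The treated peaks at distance 0 sit near treated peaks at other bases, and at 18S U216 and 25S U762 the base at distance -1 is the highest of the window.

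In the pre-40S libraries these U had few mutated reads. U216 had 0.755%, 0.595% and 0.571% with mL and DMS, against 0%, 0% and 0.459% without DMS, and 0% in the 3 treated WT libraries, where 1111 reads allow up to 0.27%. U2070 had 0.573%, 0.768% and 0.446% with WT and DMS, against 0% without DMS. With mL it was 0% with DMS, where 1532 reads allow up to 0.196%. U558 and U280 had at most 0.346% in any treated pre-40S library, against up to 0.777% in untreated ones. The U2070 values with WT rest on 2, 4 and 1 mutated reads, and the difference between mL and WT was not tested at any of these U.

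Over the 849 U with at least 50 reads in all 12 pre-40S libraries, outside the 11 U named above, the mean rate was 0.144% ± 0.0146 with mL and DMS and 0.199% ± 0.0437 with mL untreated (SD, n = 3). With WT it was 0.238% ± 0.0781 with DMS and 0.18% ± 0.11 untreated, where the WT libraries overlapped while all 3 treated mL libraries lay below the untreated ones. The pooled rate, all mutations over all depth at these U, ordered the libraries otherwise. It was 0.151%, 0.136% and 0.124% with mL and DMS, against 0.131%, 0.217% and 0.164% untreated, which overlapped. With WT it was 0.328%, 0.159% and 0.211% with DMS, against 0.0748%, 0.0643% and 0.101% untreated, without overlap. Under both averages the mean with DMS was below the untreated one with mL and above it with WT. As pooled rates the means were 0.137% treated and 0.17% untreated with mL, and 0.233% treated and 0.08% untreated with WT. Which groups overlapped therefore depended on how the U were averaged. Of these U, 105 were higher with DMS in both mature strains. They averaged 0.223% ± 0.00956 with mL and DMS, against 0.206% ± 0.0474 without, and 0.301% ± 0.0705 with WT and DMS, against 0.173% ± 0.112 without. In the mature libraries the same 105 U were at 0.161% with DMS and 0.0319% without in the deletion, and at 0.168% with DMS and 0.0328% without in BY4741, which is how they were chosen.

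The 3 N3-modified U had the highest rates of all, with or without DMS. 18S U1191 carries m1acp3-pseudouridine, made in steps by snR35, Emg1 and Tsr3, and 25S U2634 and U2843 carry m3U set by Bmt5 and Bmt6. 25S U2634 was mutated in 59.6%, 49.5% and 57.7% of reads in the deletion with DMS, against 87.0%, 87.1% and 87.5% without. In BY4741 it had 58.5%, 60.9% and 58.4% with DMS, against 86.7%, 87.1% and 87.4% without. Every treated library lay below every untreated one, without overlap. The log2 change was -0.65 in the deletion (SE 0.236, edgeR adjusted p = 0.0285) and -0.56 in BY4741 (SE 0.157, edgeR adjusted p = 0.0107). The call held in 8 of 14 alternatives in the deletion and 11 of 14 in BY4741, and with a factor from G sites the adjusted p was 0.503 and 0.477.

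The other N3-modified U were lower by less. U2843 averaged 81.3% with DMS and 84.3% without in the deletion, and 80.5% with DMS and 83.6% without in BY4741. U1191 averaged 81.4% with DMS and 85.9% without in the deletion, and 82.4% with DMS and 85.3% without in BY4741. The groups did not overlap at either site in either strain, and edgeR called neither (adjusted p from 0.816 to 0.905). The SE of the log2 change at U1191 in the deletion was 0.217. Since edgeR takes a site's spread in part from other sites, its p-values at the N3-modified U do not measure their own replicate spread alone. In pre-40S particles U2634 was at 24.0% ± 9.13 with mL and DMS and 38.5% ± 4.14 with mL untreated, and U2843 at 20.9% ± 3.13 with DMS and 32.2% ± 0.731 untreated (SD, n = 3). U1191 was at 13.4% ± 7.14 with mL and DMS and 29.2% ± 1.39 with mL untreated. In all 3 the treated mL libraries lay below the untreated ones, while with WT U1191 was at 19.6% ± 10.5 with DMS and 27.6% ± 19.8 untreated, and the libraries overlapped.

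**Figure D4:**
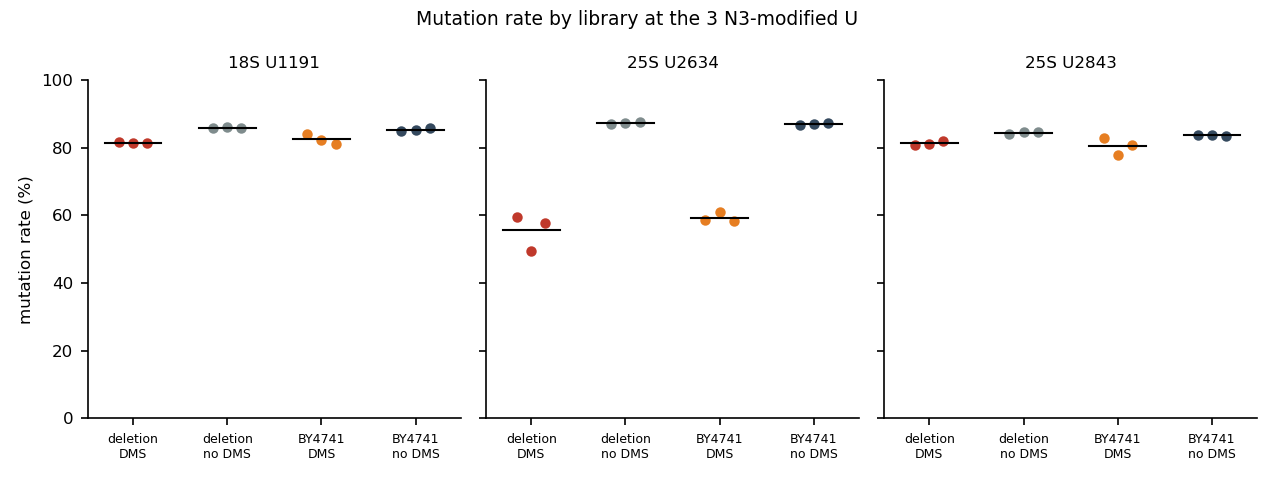
Mutation rate in percent at the 3 N3-modified U, one point per library and a bar for the mean of 3, for the deletion and BY4741 with and without DMS. At 25S U2634 the 6 treated libraries sit between 49.5% and 60.9%, and at 18S U1191 and 25S U2843 all libraries sit at 77.9% or higher.

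Pseudouridines are isomers of U with the same pairing face. Of 44 pseudouridine sites 6 were higher in the deletion (13.6%) and 4 in BY4741 (9.09%), against 19.9% and 15.6% of all U, a gap of a few sites that was not tested. 25S U2735 and U2923 were higher in both strains. 25S U2923, guided by snR10, had 0.0749% with DMS and 0.0202% without in the deletion, and 0.0707% with DMS and 0.0185% without in BY4741 (log2 change 1.94 and 1.95 by edgeR). Of 10 ribose-methylated U, 1 was higher in the deletion, 25S U2729, and 0 in BY4741. These U had a median rate of 0.424% with DMS and 0.368% without in the deletion, and 0.412% with DMS and 0.375% without in BY4741, where the 1355 U outside these lists and the 8 U above had 0.0322% with DMS and 0.0303% without in the deletion, and 0.0372% with DMS and 0.0319% without in BY4741. With 0 calls in BY4741, U2729 had an edgeR adjusted p of 0.501 there.

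18S U999, the target of snR31, carries pseudouridine where its guide is present. It had 0.132%, 0.0544% and 0.155% in the deletion with DMS, against 0.0985%, 0.0501% and 0.0744% without. In BY4741 it had 0.182%, 0.159% and 0.133% with DMS, against 0.0298%, 0.129% and 0.0592% without. The deletion's groups overlapped and BY4741's did not. The log2 change was 0.59 in the deletion (SE 0.338, edgeR adjusted p = 0.168) and 1.16 in BY4741 (SE 0.432, edgeR adjusted p = 0.0473), and BY4741's call was lost in 7 of 14 alternatives. The interaction was -0.48 (SE 0.599, edgeR adjusted p = 0.792), and at this spread it does not show whether the strains differ. Around the targets, 18 U lay within 20 nt of A974 or U999. Of these 18S U959 was called higher in both strains, at 0.0908% with DMS and 0.0228% without in the deletion, and at 0.0849% with DMS and 0.0228% without in BY4741, and no other was called in the deletion. The count was thus 1 of 18 in the deletion and 2 of 18 in BY4741, where 19.9% and 15.6% of all U were higher.

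In the peptidyl transferase centre of 25S, 3 U are given that were chosen after their values were seen, since they correspond to conserved U of the bacterial centre. U2954 had 0.128% with DMS and 0.0378% without in the deletion, and 0.123% with DMS and 0.0251% without in BY4741. U2875 had 0.102% with DMS and 0.0284% without in the deletion, and 0.094% with DMS and 0.0274% without in BY4741. U2873 had 0.029% with DMS and 0.038% without in the deletion, and 0.0418% with DMS and 0.0345% without in BY4741. The groups did not overlap at the first pair, which edgeR called in both strains (adjusted p at most 0.000178), and U2873 was called in neither (adjusted p = 0.261 and 0.509).

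Of the 1420 U, 176 were higher in both strains, and their spread along the RNAs is given as counts with no test. Windows of 100 nt with the most U higher in both strains were 18S positions 201 to 300, with 10 of 37 U, 25S positions 3301 to 3396 with 9 of 36, 25S positions 3101 to 3200 with 8 of 27 and 25S positions 2001 to 2100 with 8 of 31. Among windows with 0 such U were 18S positions 1601 to 1700, with 26 U, and 25S positions 1401 to 1500, with 23 U. A and C within 3 nt of a called U had a higher DMS excess, with a median over sites of 0.99 percentage points beside U called higher in the deletion and 0.533 beside the others. In BY4741 these medians were 0.875 and 0.378 points. The correlation of a U's log2 change with that local excess was weak (Spearman 0.18 over 1377 U in the deletion and 0.22 over 1376 in BY4741).

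Sequence classes were drawn up after the values were seen and are given as counts. Of 59 U in a loop of 3 to 6 nt that 4 Watson-Crick pairs could close, 20 were higher in the deletion (33.9%) and 13 in BY4741 (22%), where 19.3% and 15.4% of the U outside such loops were. UUCG, searched on the RNA strand, forms a stable tetraloop when a C and a G close it. Its 15 copies fill 0.281% of the 4-nt windows of mature rRNA. None of these copies lay in a loop of the kind just counted, and an A precedes the copies at 18S U493 and 25S U2570. The second U of the motif was higher at 7 of 15 copies in each strain, and the first at 7 in the deletion and 5 in BY4741. Over all U the share was 19.9% in the deletion and 15.6% in BY4741. In the copies printed above, 18S U232 had 0.147% with DMS and 0.0179% without in the deletion, and 0.146% with DMS and 0.0175% without in BY4741. 18S U494 had 0.128% with DMS and 0.024% without in the deletion, and 0.153% with DMS and 0.0198% without in BY4741. 25S U2571 had 0.133% with DMS and 0.0221% without in the deletion, and 0.146% with DMS and 0.0262% without in BY4741. Other copies stayed at background, such as 25S U3042 with 0.0216% with DMS and 0.0189% without in the deletion, and 0.0147% with DMS and 0.026% without in BY4741.

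All 3 copies of CCUUGUGG, which fill 0.0563% of the 8-nt windows, had every U called higher in both strains. The element was picked after the values were seen, so this count is no test of it. Over all U 19.9% were higher in the deletion and 15.6% in BY4741. In the wider motif UUGU, with 37 copies, the share by position was 24.3% to 32.4% in the deletion and 24.3% to 29.7% in BY4741. The last U had the highest treated rate at 2 of the 3 copies. 25S U467 was at 0.15% with DMS and 0.0352% without in the deletion, and at 0.172% with DMS and 0.0336% without in BY4741. 18S U721 was at 0.149% with DMS and 0.0399% without in the deletion, and at 0.16% with DMS and 0.0338% without in BY4741. At the third copy 25S U3195, the first U, led with 0.0881% with DMS and 0.0225% without in the deletion, and 0.0917% with DMS and 0.0162% without in BY4741.

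A separate group of U had rates that spread widely between replicates of one group. The rule on the largest treated minus untreated rate named 8 of them, 18S U517 and U1356 and 25S U257, U354, U790, U966, U1293 and U2351. In the deletion their mean was 0.718%, 0.705% and 1.10% with DMS, against 0.522%, 0.24% and 0.3% without. In BY4741 it was 1.89%, 0.825% and 1.19% with DMS, against 0.0601%, 1.23% and 0.351% without. The BY4741 groups overlapped, and edgeR called only U354 there (log2 change 2.03, SE 0.695, adjusted p = 0.0316). In the deletion 7 of the 8 were called, with U517 the exception (log2 change 0.81, SE 0.336, edgeR adjusted p = 0.0549). Over all U the share called higher was 19.9% in the deletion and 15.6% in BY4741. All 8 were named by their difference in BY4741, and U1356, U790 and U2351 also by that in the deletion. A call in a strain that named the U is therefore no separate support. U354's call in BY4741 was lost in 7 of 14 alternatives.

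Of these 8 U, 5 open the motif UAGC, whose 20 copies fill 0.374% of the 4-nt windows. Over all 20 copies the mean rate of the U was 0.359%, 0.369% and 0.567% in the deletion with DMS, against 0.245%, 0.124% and 0.156% without. In BY4741 it was 0.853%, 0.437% and 0.568% with DMS, against 0.0397%, 0.583% and 0.169% without. In untreated BY4741 the order of the replicates was the same at all 20 copies: replicate 2 was the highest and replicate 1 the lowest at 20 of 20. Of the 20 U, 16 were higher in the deletion (80%) and 5 in BY4741 (25%), where 19.9% and 15.6% of all U were.

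On average the same U were mutated far more often in pre-40S particles, with and without DMS. Their mean was 2.65%, 2.14% and 1.38% with mL and DMS, against 3.61%, 5.55% and 3.16% with mL untreated. With WT it was 7.70%, 3.14% and 3.94% with DMS, against 1.59%, 7.43% and 2.35% untreated, where replicate 1 had the depth for only 11 of the 20. With mL the treated libraries were all below the untreated ones, and with WT they overlapped. The cause of these rates was not tested.

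U followed by AG, AC or GC, which include the 20 that open UAGC, shared this spread between libraries in part. Over the 222 such U outside the 11 named above, the mean was 0.102%, 0.1% and 0.141% in the deletion with DMS, against 0.0742%, 0.0511% and 0.0571% without. In BY4741 it was 0.19%, 0.134% and 0.14% with DMS, against 0.0317%, 0.137% and 0.0607% without, and the groups overlapped. UAC and UGC hold no copy of UAGC. In untreated BY4741 the mean was 0.0322%, 0.123% and 0.0554% over 51 U of UAC. Over 77 U of UGC it was 0.0315%, 0.0931% and 0.0518%. These means include variable U named above. In untreated BY4741 replicate 2, U517 and U354 of UAC were at 1.89% and 0.584%, and U257 of UGC at 1.42%. The median U of untreated BY4741 was at 0.0322% over all 52 U of UAC and 0.0327% over all 78 of UGC. Over all U it was 0.0321%. Over the other 1187 U the mean was 0.0509%, 0.0504% and 0.0531% in the deletion with DMS, against 0.0361%, 0.036% and 0.0371% without. In BY4741 it was 0.0566%, 0.0608% and 0.0515% with DMS, against 0.0314%, 0.0468% and 0.0376% without. These U kept their treated libraries above their untreated ones in both strains, at ratios of 1.41 in the deletion and 1.46 in BY4741, below the 1.52 and 1.61 with the 222 included. Of the U outside these triplets 211 of 1196 were higher in the deletion (17.6%) and 181 of 1195 in BY4741 (15.1%), against 72 of 224 in the deletion (32.1%) and 41 of 224 in BY4741 (18.3%) within them.

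**Figure D5:**
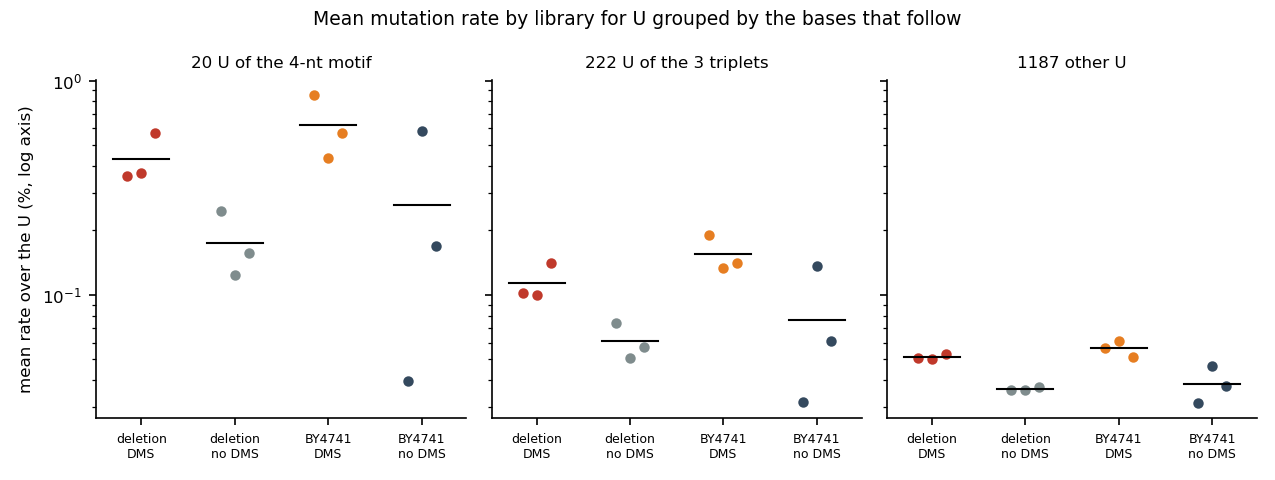
Mean mutation rate in percent on a log axis, one point per library and a bar for the mean of 3, over the 20 U that open the 4-nt motif, the 222 U followed by one of 3 dinucleotides, and the other 1187 U. The 20 U are also among the 222. The untreated BY4741 libraries spread from 0.0397% to 0.583% in the first panel and from 0.0314% to 0.0468% in the last, where no treated library overlaps an untreated one of its strain.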

How the data were processed

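DMS-MaPseq was read in 24 single-end libraries. Per the submitters' processing notes, reads were aligned with Bowtie2. The labels and files state neither its version nor the program that called mutations. The authors deposited, per library and RDN37 nucleotide, counts of mutated reads and of effective depth, and the rate, a fraction equal to mutation counts over effective depth, per the file headers. Rates are printed as percentages. The files name no genome build.

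Sites with a depth of at least 1000 in all 12 mature libraries were kept, and those with at least 10 mutations over a strain's 6 libraries were tested. edgeR 4.0.16 (R 4.3.3) fitted mutation counts with log effective depth as offset, each strain by itself. p-values were adjusted by Benjamini-Hochberg over all tested sites of all bases, with calls under 0.05. The interaction used all 12 mature libraries and a factor per library, the median rate ratio over tested sites. DESeq2 1.42.0 and limma 3.58.1 were alternatives, with other depth and mutation minimums, scalings, the replicate number as a block, and each library left out. Scripts were tested on simulated data. Means over U were compared by exact permutation of libraries.

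Named per strain were the 10 largest rises and 5 largest falls among called U with a mean of at least 0.2% in the higher group and no overlap, the 10 largest differences, called U within 20 nt of 18S A974 or U999 and the 3 N3-modified U. Also named were single-library U, high in 1 or 2 mature libraries (at least 1% and 10 times the median of the other mature libraries). After values were seen, 3 U of the peptidyl transferase centre were added and sequence classes drawn up. Modified sites came from textbook knowledge. The members and lists were chosen with earlier results of these data known. Pre-40S rates are given where depth was at least 50, with no test.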

Additional observations from a re-analysis of the deposited data

How the results depend on the processing

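With scaling to the median of all sites, higher and lower U became 188 and 436 in the deletion and 126 and 319 in BY4741. Lower calls in the deletion came to 13 with a factor from G sites and 12 by DESeq2, and lower calls in BY4741 to 3 by DESeq2 and 4 by limma. Leaving out 1 library in turn gave 255 to 274 higher and 28 to 41 lower U in the deletion, and 178 to 344 higher and 4 to 24 lower in BY4741. Of the calls with all libraries, 215 of 283 higher and 8 of 44 lower U in the deletion held in all 6 such fits, and 151 of 222 and 3 of 8 in BY4741. The mean difference in the deletion was -0.0311 percentage points as a pooled rate and 0.0207 points without listed modified and single-library U, and that in BY4741 was 0.0265 points without them. With 1 library left out it ran from -0.00999 to 0.00178 points in the deletion and from -0.0173 to 0.0115 in BY4741, the highest without untreated replicate 2. Without only the N3-modified and single-library U, chosen after the values were seen, it was 0.0211 points in the deletion and 0.0272 in BY4741.

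In BY4741, leaving out untreated replicate 2 turned the log2 change positive at 18S U128 (0.42), U132 (1.12), U134 (1.48), U303 (0.037) and U611 (0.075). Over all fits that left out 1 library these changes were as low as -5.12, -2.90, -2.79, -5.25 and -4.15. Without BY4741 untreated replicate 2 the change was also positive at 18S U3 (1.54), while U37 (-1.78) and U935 (-2.34) stayed negative. In the deletion without treated replicate 3 the change at U935 was -2.12. With the replicate block, higher and lower U numbered 284 and 42 in the deletion and 260 and 6 in BY4741, and the interaction 0. Under the replicate block 25S U2634 was not called (edgeR adjusted p = 0.115 in both strains). Same-numbered treated and untreated libraries did not deviate together (correlations from -0.18 to 0.01), so the numbers were not taken to pair them. The interaction called 0 U in every alternative run, with 43 to 112 U at an unadjusted p under 0.05. Apart from fewer libraries or sites in a fit, the cause of these shifts was not tested. In the pre-40S libraries a median of 55 reads in 1 library leaves rates under 1% unresolved at single sites.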
